A study of Mus musculus with 8 samples.

Results

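The smooth muscle contractile genes described here are 10 genes, namely Acta2, Actg2, Lmod1, Tpm1, Tpm2, Cnn1, Tagln, Myh11, Myl9 and Des. Their products form or bind the contractile filaments of smooth muscle, except for Des, which encodes an intermediate filament protein. The genes were taken by name, with earlier results of these data known, so the shares of all genes given below are descriptions. Each gene was read from every probe set whose platform annotation gives exactly 1 gene symbol and that symbol is a member. All 10 genes were found, on 20 probe sets of the 45037 tested, among 18193 genes with such a probe set. RNA was measured on 8 Affymetrix arrays of mouse embryonic fibroblasts of the C57BL/6 strain. All cells were null for Stat5 and had been given back a mutant STAT5 by a retroviral vector. In the EA cells the mutant carries a change of EE to AA in a binding domain, per the labels, and in the YF cells it carries Y694F at the phosphorylation site. Cells of each mutant were either unstimulated or had received growth hormone for 120 minutes, which gave 4 groups of 2 arrays, called biological duplicates in the series text. Whether a mutant's 2 arrays came from separate infections, pools or clones is not given in the sources used here, so each p-value measures the spread between these arrays. No cells with wild-type STAT5 or an empty vector were analysed here, so every mutant comparison is of EA with YF.

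Smooth muscle shortens when myosin filaments pull on actin filaments, and the pull is switched on when calcium and calmodulin activate the kinase that phosphorylates the myosin regulatory light chain. Fibroblasts carry part of the same machinery, and those that build stress fibres rich in alpha smooth muscle actin are called myofibroblasts. Many of these genes are driven by serum response factor (SRF), which binds a short DNA element called the CArG box together with myocardin or the myocardin-related factors MRTF-A and MRTF-B.

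The RefSeq promoter table of GRCm38.p6 held a window for 7 of the 10 genes, and Actg2, Myh11 and Tagln were not among them. The 250 bases before the annotated start were searched for the CArG box, whose letters read the same on both strands, and for a version with up to 1 G or C in its core of 6 bases. A full CArG box stood in 1.47% of the 32851 windows of that length, and the looser version, which counts the full boxes too, in 8.59%. Among the members, Myl9 held 1 full box and 1 looser one, and Acta2 held 2 of the looser kind. Cnn1, Lmod1, Des, Tpm1 and Tpm2 had no match in these letters of the window. The stretches with the matches are shown 5′ to 3′ because they are the element through which SRF is known to act on such genes, with each match in capitals. They lie at chr19:34255394-34255473 on the minus strand for Acta2, with the matches beginning at positions -84 and -34 from the annotated start. For Myl9 the stretch is chr2:156775294-156775383 on the plus strand, with the full box beginning at -161 and the looser one at -99.
Acta2: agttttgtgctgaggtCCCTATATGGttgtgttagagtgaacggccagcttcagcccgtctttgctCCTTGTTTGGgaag
Myl9: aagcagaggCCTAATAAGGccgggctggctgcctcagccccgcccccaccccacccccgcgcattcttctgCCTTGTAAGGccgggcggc
These matches describe the letters alone. SRF binding was not measured in this series.

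Values are log2 expression values, so a difference of 1 is a doubling. Of all tested probe sets, 55.0% had a mean below 4 and formed a dense low group, inside which the scale of a value is unknown. A difference was called passing when its limma p-value, adjusted over all 45037 probe sets, lay under 0.05. A principal component analysis split the mutants on its first axis (69.9% of the variance), with scores of -66.4 to -61.4 for EA arrays and 62.4 to 64.9 for YF arrays. On its second axis (12.6%) the array of replicate 1 of YF with hormone was at -55.8, against -3.3 to 32.6 on the remaining YF arrays. Results that change without it are named beside their values. The fibroblast label was checked against 8 markers. Vim, Col1a1, Col1a2 and Col3a1 read at least 14.32 on every array and Pdgfra at least 11.19, Lum lay in the low group on all arrays, and Thy1 and Dcn differed between the mutants as given further on.

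Several contractile genes were lower in EA than in YF cells, with the difference very large for Cnn1 and Myh11, while Tagln, Lmod1, Tpm1 and Des did not pass. Averaged over treatments, 6 of the 10 genes passed lower on their brightest probe set and 0 passed higher in limma, against 10.5% of all genes passing lower and 12.3% higher. The 6 were Acta2, Actg2, Cnn1, Myh11, Myl9 and Tpm2. The median log2 difference of the 10 genes was -0.48, beside 0.02 over all genes. Of the 10, 9 had an unadjusted limma p under 0.05, beside 11527 of all 45037 probe sets. Here and in the hormone comparisons below, a count of genes thus stands beside a count of probe sets, most of them in the low group. The like count over all genes was not computed. On 8 of the 10 genes every EA array lay below every YF array, which was so for 11.4% of all genes. Over the 20 probe sets, 10 passed lower and 0 higher, against 8.38% of all probe sets passing lower. In such bulk samples fewer cells of a kind and less RNA per cell cannot be told apart.

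**Figure D1:**
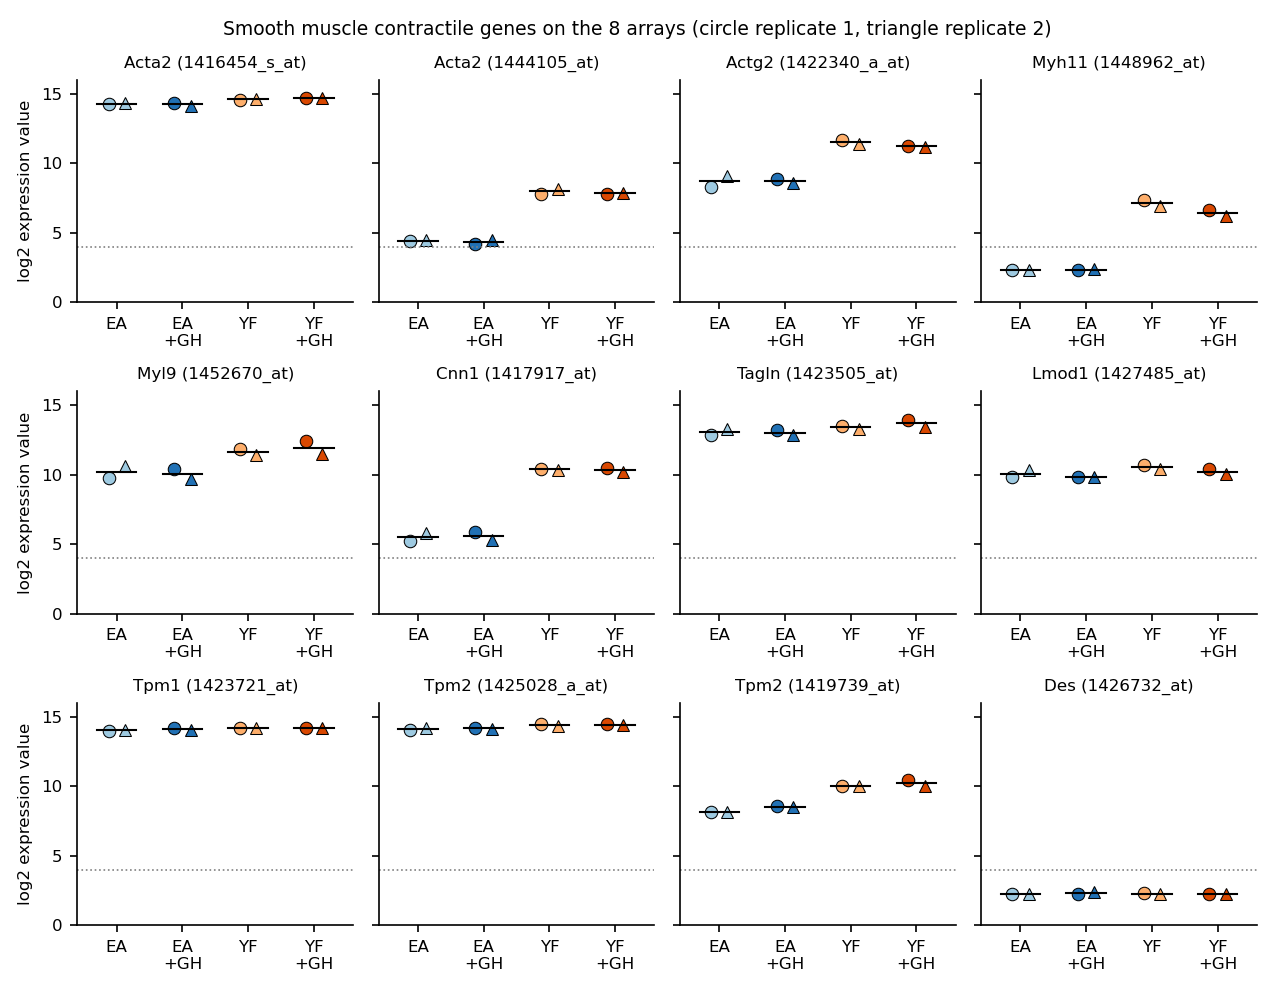
Log2 expression value on each array (vertical axis) in the 4 groups (horizontal axis, GH for growth hormone) for the brightest probe set of each gene and a second one of Acta2 and Tpm2. Points are arrays, bars are group means and the dotted line marks the value of 4 that bounds the low group, below which Des lies on all arrays and Myh11 on the EA arrays.

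Without hormone, 3 of the 10 genes passed lower in EA cells, Actg2, Cnn1 and Myh11, against 6.74% of all genes passing lower and 8.28% higher. With hormone 4 passed lower, these and Acta2, against 7.03% of all genes passing lower and 6.50% higher. By probe sets it was 6 of 20 in each comparison, against 5.25% and 5.80% of all probe sets. None passed higher in limma in either comparison, and no member had a higher value in EA at an unadjusted p under 0.05.

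Acta2 encodes alpha smooth muscle actin, the actin of vascular smooth muscle and of myofibroblast stress fibres. Its brightest probe set read 14.27 and 14.34 in EA cells, 14.34 and 14.16 in EA cells with hormone, 14.55 and 14.65 in YF cells, and 14.67 and 14.70 in YF cells with hormone. The EA and YF arrays did not overlap, but all lay near the top of the scale, above the mean of 99.7% of probe sets. The log2 difference, EA minus YF, was -0.36 averaged over treatments (SE 0.05, 4 arrays a side, limma adjusted p = 0.0092). It was -0.29 without hormone (SE 0.07, limma adjusted p = 0.074), which missed the threshold, and -0.43 with hormone (SE 0.07, limma adjusted p = 0.025). The call with hormone was lost without EA replicate 1 or 2, EA with hormone replicate 2 or YF with hormone replicate 1 or 2, at limma adjusted p = 0.053 to 0.086. It was also lost after centring the arrays (0.065), with a replicate block (0.056) and when only the 4 arrays with hormone were fitted (0.11). The averaged call held under all of the alternatives run.

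A dimmer Acta2 probe set, built on a sequence tag (1444105_at), gave a far larger difference. It read 4.39 and 4.47 in EA cells and 4.18 and 4.48 with hormone, against 7.79 and 8.18 in YF cells and 7.81 and 7.84 with hormone. All 4 EA arrays stood just above the low group and all 4 YF arrays clearly above it. The log2 difference was -3.55 without hormone (SE 0.16, limma adjusted p = 0.00050) and -3.49 with it (SE 0.16, limma adjusted p = 0.00052). The third Acta2 probe set lay in the low group on all arrays, with a value of -0.23 averaged over treatments (SE 0.07, limma adjusted p = 0.095). The probe sets of Acta2 thus gave the same sign and different sizes. By the maker's naming, a name ending in _s_at marks probes that also match transcripts of other genes, which is the case for the brightest one, and which transcripts those are was not analysed here.

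Actg2 encodes gamma smooth muscle actin, the actin of gut and other visceral smooth muscle, and was measured by 1 probe set. Its log2 values were 8.32 and 9.08 in EA cells and 8.83 and 8.59 with hormone. In YF cells they were 11.66 and 11.39, and with hormone 11.28 and 11.15. Every YF array was above every EA array by more than the arrays of a group differed. The log2 difference was -2.82 without hormone (SE 0.27, n = 2 per group, limma adjusted p = 0.0041) and -2.50 with hormone (SE 0.27, limma adjusted p = 0.0061), which is 6.33-fold lower in EA averaged over treatments.

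Cnn1 encodes calponin, an actin-binding protein that restrains the myosin motor and is used as a marker of mature smooth muscle. EA cells read 5.26 and 5.79, and 5.90 and 5.27 with hormone, while YF cells read 10.43 and 10.35, and 10.52 and 10.21 with hormone. The lowest YF array was more than 4 log2 units above the highest EA array. The log2 difference was -4.87 without hormone (SE 0.27, limma adjusted p = 0.00092) and -4.78 with it (SE 0.27, limma adjusted p = 0.0011), and averaged over treatments the level in YF was 28.3-fold that in EA.

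Tagln encodes transgelin (SM22), an actin-binding relative of calponin that rises early in smooth muscle differentiation. In contrast to Cnn1 it was bright in all groups, at 12.86 and 13.29 in EA cells, 13.23 and 12.83 with hormone, 13.51 and 13.33 in YF cells and 13.96 and 13.47 with hormone. The arrays did not overlap between the mutants, though by a margin of 0.04 only. The log2 difference of -0.52 averaged over treatments did not pass (SE 0.17, limma adjusted p = 0.12, 95% interval -0.95 to -0.08).

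Myh11 encodes the smooth muscle myosin heavy chain, regarded as the most specific marker of the lineage. On 1 probe set it lay in the low group on all EA arrays, at 2.29 and 2.29, and at 2.31 and 2.35 with hormone. YF cells read 7.35 and 6.90, and 6.64 and 6.22 with hormone, so that Myh11 RNA was measured above the low group in YF cells alone. The log2 difference was -4.84 without hormone (SE 0.19, limma adjusted p = 0.00033) and -4.10 with hormone (SE 0.19, limma adjusted p = 0.00056). With the EA side in the low group, the size of that difference is uncertain. The other Myh11 probe set, built on the same accession, lay between 2.07 and 2.15 on all arrays, with a difference of -0.00 (SE 0.03, limma adjusted p = 0.91).

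Myl9 encodes the regulatory light chain of smooth muscle myosin, whose phosphorylation starts contraction. It read 9.77 and 10.63 in EA cells, 10.44 and 9.69 with hormone, 11.88 and 11.43 in YF cells and 12.40 and 11.46 with hormone. The mutants did not overlap, but the 2 arrays of a group differed by up to 0.94. Averaged over treatments the log2 difference was -1.66 (SE 0.34, limma adjusted p = 0.028), while neither -1.45 without hormone (SE 0.48, limma adjusted p = 0.15) nor -1.87 with hormone (SE 0.48, limma adjusted p = 0.079) passed. The averaged call held without EA replicate 2 or YF with hormone replicate 2. It was lost without any 1 of the other 6 arrays (EA replicate 1, both of EA with hormone, both of YF, and YF with hormone replicate 1), at limma adjusted p = 0.055 to 0.095.

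The tropomyosins lie along the actin filament and govern how myosin reaches it, and each gene makes muscle and non-muscle isoforms by alternative splicing and promoters. Tpm2 passed lower in EA averaged over treatments on all 4 of its probe sets. Of these, 1419738_a_at, 1449577_x_at and 1419739_at are built on the same target sequence, so the calls are not independent. On its 3 bright probe sets the means lay between 13.7 and 14.4 in each group, and the log2 differences were -0.49 to -0.24. The call of the brightest (-0.26, SE 0.05, limma adjusted p = 0.024) held without EA replicate 2 or YF replicate 2. It was lost without any 1 of the other 6 arrays (EA replicate 1, both of EA with hormone, YF replicate 1 and both of YF with hormone), at limma adjusted p = 0.052 to 0.084.

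The fourth Tpm2 probe set (1419739_at) differed more. It read 8.11 and 8.15 in EA cells, 8.57 and 8.48 with hormone, 10.04 and 10.04 in YF cells, and 10.47 and 9.99 with hormone. The groups of the 2 mutants were well apart, with a log2 difference of -1.91 without hormone (SE 0.16, limma adjusted p = 0.0028) and -1.71 with hormone (SE 0.16, limma adjusted p = 0.0039). Which Tpm2 transcripts each probe set detects was not analysed here.

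Tpm1 did not pass on any of its 4 probe sets. The brightest read 14.01 and 14.08 in EA cells, 14.17 and 14.08 with hormone, and 14.19 to 14.21 on the 4 YF arrays. Its log2 difference averaged over treatments was -0.11 (SE 0.03, limma adjusted p = 0.086, 95% interval -0.20 to -0.03). A further pair of Tpm1 probe sets above the low group gave -0.27 and -0.19, and the last lay in the low group on all arrays.

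Lmod1 encodes leiomodin, which nucleates actin filaments in smooth muscle. It read 9.81 and 10.32 in EA cells, 9.81 and 9.83 with hormone, 10.68 and 10.42 in YF cells and 10.38 and 10.03 with hormone. The mutants overlapped, and the log2 difference of -0.44 averaged over treatments did not pass (SE 0.15, limma adjusted p = 0.14, 95% interval -0.81 to -0.06). Des encodes desmin, the intermediate filament protein of muscle, and lay in the low group on all 8 arrays, at 2.21 to 2.37 on the brighter of its 2 probe sets. Its difference of 0.04 did not pass (SE 0.03, limma adjusted p = 0.64).

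**Figure D2:**
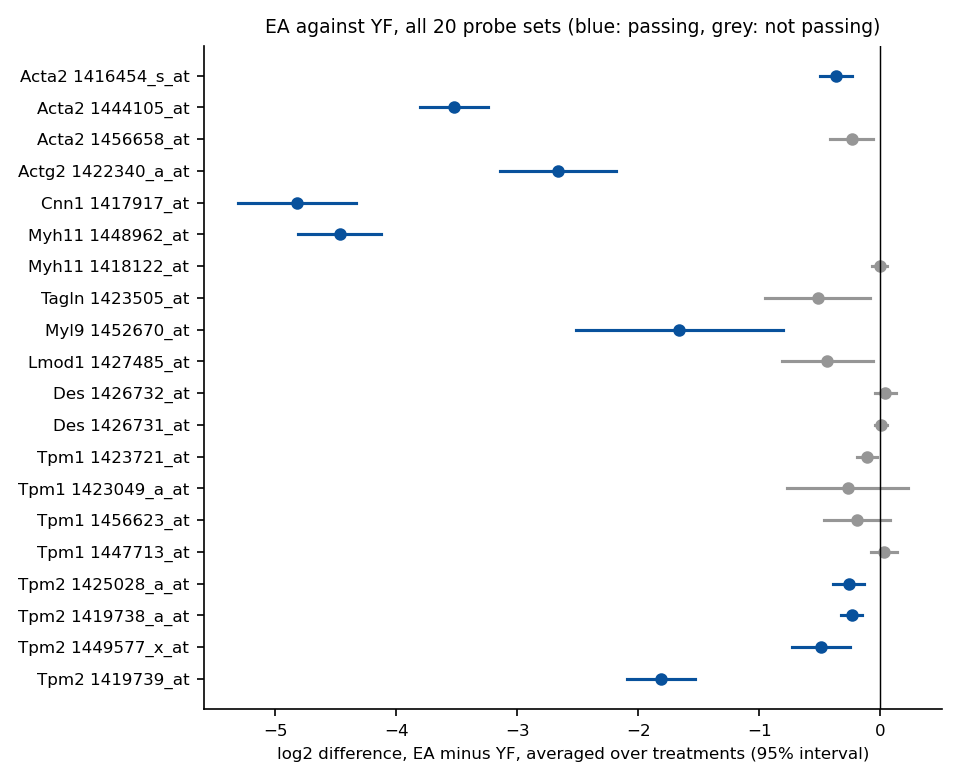
Log2 difference, EA minus YF, averaged over treatments (horizontal axis) for the 20 probe sets of the 10 genes (vertical axis), with points for estimates and lines for 95% intervals. The 10 probe sets that passed are blue, all with negative values, from -0.24 for a bright Tpm2 probe set to -4.82 for Cnn1.

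The size of the difference varied with the level of the probe set. The 6 member probe sets with a mean of 13 or more had log2 differences of -0.52 to -0.11 averaged over treatments, and 4 of them passed, beside 21.3% of all probe sets of that class in either direction. The 9 with means of 4 to 13 ranged from -4.82 to -0.19, and 6 passed, beside 34.8% of all probe sets of that class in either direction. Over all probe sets the absolute difference had a median of 0.085 and a 95th percentile of 0.41 in the first class, and a median of 0.30 and a 95th percentile of 1.72 in the second. The 5 member probe sets with a mean below 4 gave -0.23 to 0.04, and none passed in limma, beside 2.46% of all probe sets of that class in either direction.

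Growth hormone changed no contractile gene past the threshold in either mutant. In EA cells 0 of the 10 genes and 0 of the 20 probe sets passed in limma, against 0.198% of all genes and 0.135% of all probe sets. An unadjusted limma p under 0.05 was found for 0 of the 10 genes, beside 2529 of all 45037 probe sets. The log2 changes of the 15 probe sets above the low group on at least 1 array ran from -0.24 for Lmod1 to 0.39 for the dimmest Tpm2 probe set (SE 0.16, limma adjusted p = 0.87). Myh11, among the 15, lay in the low group on the EA arrays. For Cnn1 the change was 0.07, with a 95% interval of -0.63 to 0.76. For the brightest Acta2 probe set it was -0.05 (95% interval -0.24 to 0.13), and for Myl9 it was -0.13 (95% interval -1.34 to 1.07). The intervals were thus narrow for the actin and tropomyosin probe sets with means of 13 or more. On those, the differences between the mutants were small too, so how far a narrow interval bounds the RNA change is uncertain. A dimmer Tpm1 probe set (1423049_a_at) had an interval of -0.64 to 0.78. The interval was wide for Myl9, for which a change of a doubling either way was not detectable with these arrays.

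In YF cells 0 of the 10 genes and 0 of the 20 probe sets passed in limma as well, against 0.198% of all genes and 0.180% of all probe sets. An unadjusted limma p under 0.05 was found for 1 of the 10 genes, beside 5114 of all 45037 probe sets. The gene was Myh11, which went from a mean of 7.13 (SD 0.31, n = 2) to 6.43 (SD 0.30, n = 2). Its log2 change was -0.70 (SE 0.19, limma adjusted p = 0.31, 95% interval -1.18 to -0.21). Both arrays with hormone lay below both without on 4 of the 10 genes, and above both on 1, Acta2. The 4 were Actg2, Myh11, Lmod1 and Des, the last in the low group on all arrays. The share of all genes was not computed for this, so these counts are descriptions. Apart from Myh11, the probe sets above the low group had values between -0.35 for Lmod1 and 0.37 for a Tpm1 probe set. For Cnn1 the change was -0.02, with a 95% interval of -0.72 to 0.67.

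Testing the difference between the hormone responses of the mutants called 0 of the 10 genes and 0 of the 20 probe sets in limma, against 0.0220% of all genes and 0.0200% of all probe sets. Myh11 again had the only unadjusted limma p under 0.05 among the 10 genes, beside 4385 of all 45037 probe sets. Its difference was 0.74 (SE 0.27, limma adjusted p = 0.45, 95% interval 0.06 to 1.42), with the EA side in the low group. For Cnn1 the difference was 0.09 (95% interval -0.89 to 1.07), and for Actg2 it was 0.32 (95% interval -0.63 to 1.28). Leaving out any 1 array, the array that stood apart included, called 0 of the 10 genes in any of these hormone comparisons.

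**Figure D3:**
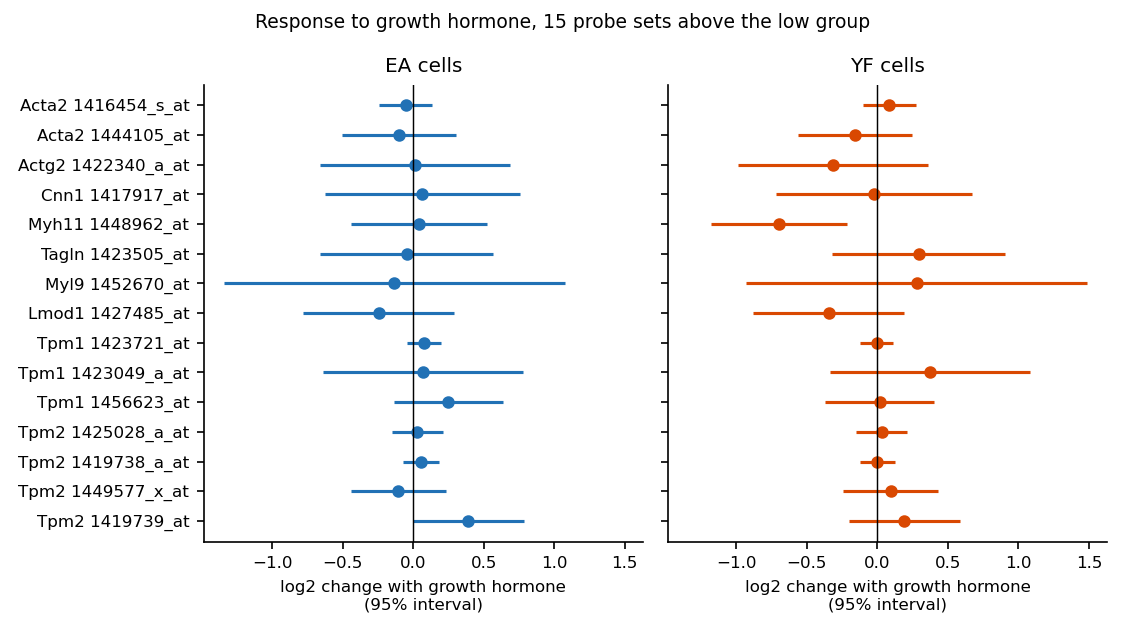
Log2 change with growth hormone (horizontal axis) in EA cells (left) and YF cells (right) for the 15 member probe sets above the low group on at least 1 array (vertical axis). Points are estimates and lines are 95% intervals. In EA cells the Myh11 probe set lies in the low group. No change passed, and the Myh11 probe set in YF cells, at -0.70, lies farthest from 0.

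Within a group, the contractile genes tended to be higher on the same array. In EA cells replicate 2 was above replicate 1 on 14 of the 15 probe sets whose mean was above the low group, with a median difference of 0.12, while over all 20264 such probe sets it was above on 51.6%. With hormone it was replicate 1 of EA that was higher, on 11 of 15, beside 59.2% of all. Replicate 1 was also higher on 11 of 15 in YF cells, beside 51.6% of all, and on 13 of 15 in YF with hormone, beside 53.0%. Probe sets of 1 gene share their RNA, so these counts are descriptions.

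Myl9 varied most. Its replicate 2 minus replicate 1 was 0.85 in EA cells, -0.75 in EA with hormone, -0.45 in YF and -0.94 in YF with hormone. Cnn1, Tagln and a Tpm1 probe set (1423049_a_at) had the same signs in each group, while the brightest probe sets of Acta2, Tpm1 and Tpm2 differed by less. In YF with hormone the higher array was the one that stood apart on the second component. Without it the calls of Acta2 with hormone, and of Myl9 and Tpm2 averaged over treatments, were lost, as given above. The totals over all probe sets also moved with an array left out, as given further on. Over the fits without 1 array, this one included, the log2 difference ranged from -0.52 to -0.34 for Acta2 with hormone. Averaged over treatments it ranged from -1.90 to -1.43 for Myl9 and from -0.30 to -0.22 for Tpm2.

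**Figure D4:**
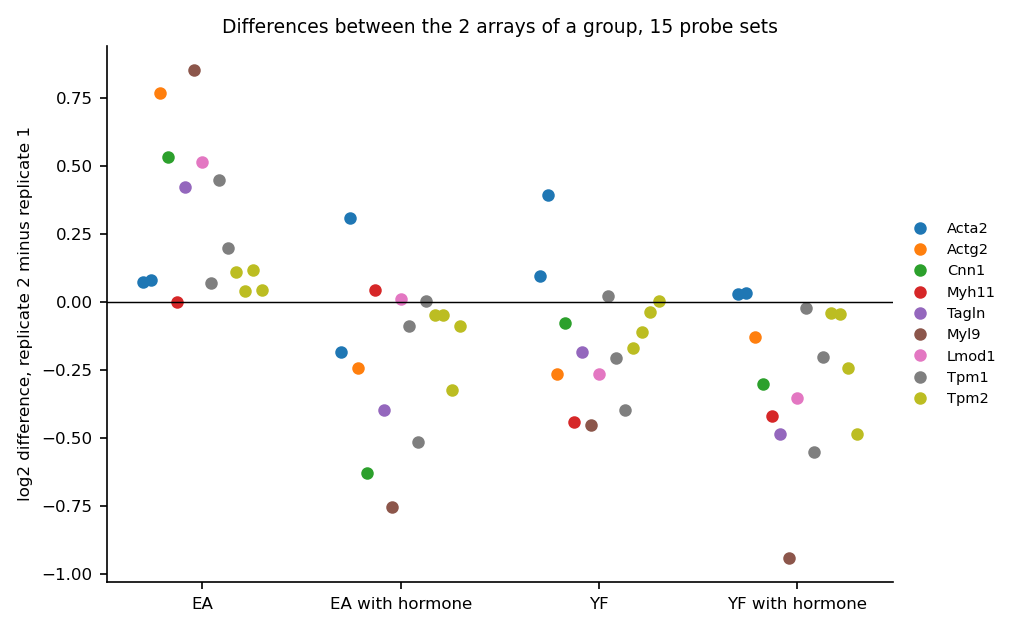
Log2 difference between the 2 arrays of each group, replicate 2 minus replicate 1 (vertical axis), for the 15 member probe sets with a mean above the low group, coloured by gene, in the 4 groups (horizontal axis). In EA cells 14 of 15 points are above 0, and in YF with hormone 13 of 15 are below it. The EA point not above 0 is Myh11, which lies in the low group on the EA arrays.

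Other genes of the smooth muscle programme did not all move with the 10. Of 19 measured genes on a list of further smooth muscle genes, 5 passed lower and 3 higher in EA averaged over treatments. Of all genes 10.5% passed lower and 12.3% higher. The list's median log2 difference was -0.21 beside 0.02 over all genes. Jph2, a junctophilin that ties the sarcoplasmic reticulum to the surface membrane, was at group means of 4.33 to 4.51 in EA and 8.18 to 8.48 in YF, a log2 difference of -3.91 (SE 0.18, limma adjusted p = 0.00025). Mylk, the myosin light chain kinase, had a difference of -1.89 (SE 0.04, limma adjusted p = 3.5e-05), and its second probe set gave -4.06 with the EA side in the low group. Mcam, an adhesion molecule of vascular cells, was higher in EA by 1.68 (SE 0.05, limma adjusted p = 5.8e-05), and Aoc3, an amine oxidase of smooth muscle and fat cells, by 1.46 (SE 0.12, limma adjusted p = 0.0014). Kcnmb1, Ppp1r14a, Pln, Pdlim3 and Itga7 lay in the low group on all arrays.

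Mylk was also the only gene of any list here that passed in a comparison of hormone with none. In YF cells it went from 10.70 and 10.80 to 9.79 and 9.89, a log2 change of -0.91 (SE 0.06, limma adjusted p = 0.027). That call was lost after quantile normalization (0.065), with a block for the replicate number (0.076) and when the 4 YF arrays were fitted by themselves (0.24). It was also lost without any 1 array other than YF with hormone replicate 2, that is without either EA array, either array of EA with hormone, either YF array or YF with hormone replicate 1 (0.070 to 0.11).

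Of 20 actomyosin genes that most cells express, 6 passed lower and 0 higher in EA averaged over treatments, against 10.5% and 12.3% of all genes. Their median was -0.12, and the largest passing difference on a gene's brightest probe set was -0.55 for Actn4, a crosslinker of actin (SE 0.13, limma adjusted p = 0.049). Myh10, a non-muscle myosin heavy chain, had -0.42 (SE 0.06, limma adjusted p = 0.0090), Tagln2 -0.34 and Actn1 -0.30. Dimmer probe sets gave larger passing differences for Myl12b, a non-muscle myosin light chain (-2.50, SE 0.19, limma adjusted p = 0.0013), for Actn1 (-1.01, limma adjusted p = 0.039) and for Myl12a (-0.72, limma adjusted p = 0.00098), while the brightest of Myl12b and Myl12a did not pass. Dimmer ones of Cnn3 (-0.52, -0.44 and -0.43, limma adjusted p = 0.015, 0.030 and 0.0066) and Myh9 (-0.57, limma adjusted p = 0.0135) passed too. The brightest and the remaining probe sets of Cnn3 and Myh9 did not. The cytoplasmic actins Actb and Actg1 did not pass on their brightest probe sets, at 0.02 (SE 0.06) and -0.07 (SE 0.03), and were named after their values were seen. A second Actb probe set gave -0.47 (SE 0.11, limma adjusted p = 0.038). Of the calls on brightest probe sets, that of Actn4 was lost after centring the arrays (0.074), with limma's robust option (0.057), with a replicate block (0.072) and without any 1 array other than YF with hormone replicate 2 (0.058 to 0.16). That of Tagln2 was lost without either EA array or either array of EA with hormone (0.055 to 0.065).

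Among 18 transcriptional regulators of smooth muscle genes, 6 passed lower and 4 higher in EA averaged over treatments, against 10.5% and 12.3% of all genes. Srf itself was at 10.22 and 10.18 in EA cells, 10.03 and 9.97 with hormone, 10.59 and 10.85 in YF cells, and 10.78 and 10.65 with hormone. Its log2 difference averaged over treatments was -0.62 (SE 0.07, limma adjusted p = 0.0040), with no overlap between the mutants. Mrtfa, which encodes MRTF-A, had -0.64 (SE 0.14, limma adjusted p = 0.037), a call lost after centring (0.058), with a replicate block (0.055) and without any 1 array other than EA replicate 2 and YF with hormone replicate 2 (0.072 to 0.12). Mrtfb had 0.10 (SE 0.07, limma adjusted p = 0.53), and Myocd, the gene of myocardin, lay in the low group on all arrays. Klf4, a repressor of smooth muscle genes, was higher in EA by 1.32 (SE 0.07, limma adjusted p = 0.00037), and Notch3, a receptor of mural cells, by 1.31 (SE 0.06, limma adjusted p = 0.00028). Fhl2, an SRF-binding cofactor, and Tead1, a DNA-binding partner of YAP, were lower by log2 differences of -1.06 and -0.70, and a second Tead1 probe set did not pass (-0.50, limma adjusted p = 0.17).

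Of 15 matrix and adhesion genes of myofibroblasts 8 passed lower and 1 higher, against 10.5% and 12.3% of all genes, with a median of -0.20. The largest was Cthrc1, a secreted collagen-associated protein (-2.37, SE 0.19, limma adjusted p = 0.0014, with the EA means in the low group), followed by Ccn2, a matricellular protein induced by TGF-beta (-1.19, SE 0.09), Tnc (-1.01, SE 0.12) and Ccn1 (-0.58, SE 0.06).

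**Figure D5:**
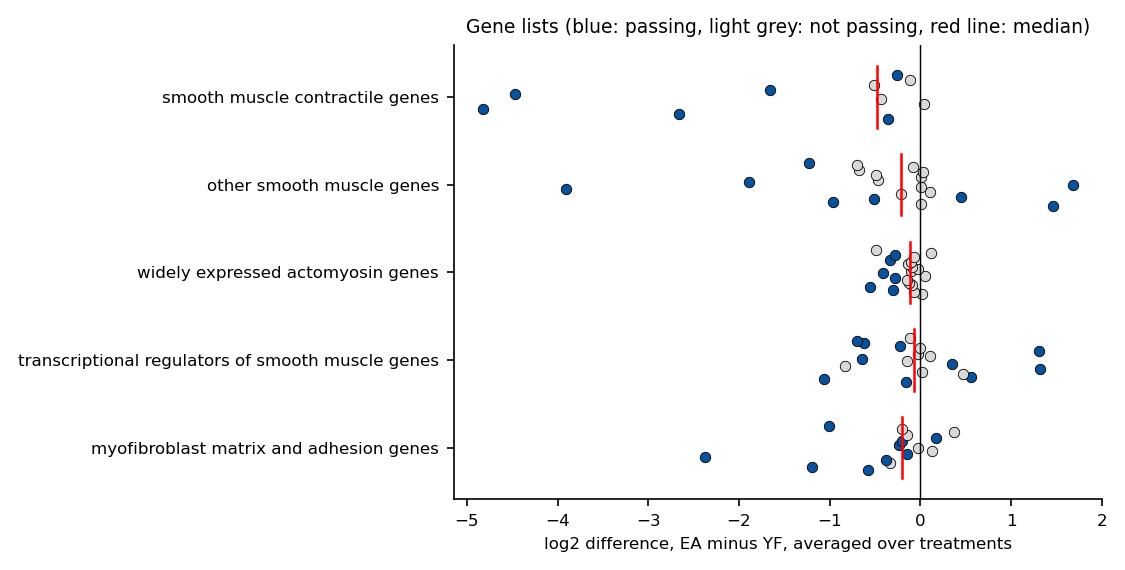
Log2 difference, EA minus YF, averaged over treatments (horizontal axis) for the genes of 5 lists (vertical axis), each gene by its brightest probe set. Blue points passed, light grey points did not, and the red line is the list's median, -0.48 for the contractile genes and between -0.21 and -0.07 for the other lists.

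Markers of other contractile or vascular cells were read beside these results. Of 12 skeletal muscle markers, 10 lay in the low group on all arrays, among them Myod1, Myog, Myf5 and Myf6, and the sum of the list's linear values was 191 to 336 on the EA arrays and 219 to 466 on the YF arrays. Tnnt3 was higher in EA by 5.21 (SE 0.22, limma adjusted p = 0.00021), from the low group in YF. Acta1, skeletal muscle actin, was lower in EA by a log2 difference of -1.96 (SE 0.44, limma adjusted p = 0.037), a call lost after centring (0.051), with a replicate block (0.055) and without any 1 array other than EA replicate 2 and YF with hormone replicate 2 (0.069 to 0.13). Of 9 cardiac markers, 8 lay in the low group on all arrays, Actc1, Myh6, Myh7 and Myl7 included, with sums of 211 to 315 in EA and 110 to 158 in YF, and Tnnt2 was higher in EA by 1.35, a call lost without EA with hormone replicate 1 or YF replicate 1 (0.061 and 0.055).

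Of 6 pericyte markers, Rgs5, a regulator of G protein signalling, was lower in EA like several contractile genes. Its group means were 4.15 and 4.47 in EA and 8.67 and 8.33 in YF, a log2 difference of -4.19 (SE 0.48, limma adjusted p = 0.0044). The untreated EA arrays read 5.21 and 3.09, the latter in the low group. Dimmer Rgs5 probe sets gave -3.45 and -1.61, both passing with the EA means in the low group. The last, with all group means in the low group, gave -0.00. Cspg4 was higher in EA by 0.87, Pdgfrb did not pass (0.28, SE 0.10), and Kcnj8, Abcc9 and Higd1b lay in the low group on all arrays. The list's summed value was 10293 to 10453 in EA and 7387 to 8638 in YF.

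Fibroblast markers also differed between the mutants. Of the 8, 4 passed lower and 0 higher in EA averaged over treatments, against 10.5% and 12.3% of all genes. Thy1 had a log2 difference of -4.96 (SE 0.09, limma adjusted p = 1.8e-05) and Dcn of -4.45 (SE 0.21, limma adjusted p = 0.00026, with the EA side in the low group), and Lum (-0.92, SE 0.19, limma adjusted p = 0.029) and Col1a1 (-0.24, SE 0.05, limma adjusted p = 0.031) passed too. The call of Lum, inside the low group, was lost without either EA array, either array of EA with hormone or either YF array (0.059 to 0.099). That of Col1a1 was lost after centring (0.076), with a replicate block (0.054) and without EA replicate 1, either array of EA with hormone, YF replicate 2 or either array of YF with hormone (0.062 to 0.10). Col1a2, Col3a1, Pdgfra and Vim did not pass on their brightest probe sets, but second ones passed for Col3a1 (-0.54, limma adjusted p = 0.0077) and Col1a2 (-0.24, limma adjusted p = 0.0099). The list's summed value was 101531 to 105954 in EA and 111019 to 115975 in YF. All 6 epithelial markers lay in the low group on all arrays, as did 5 of 6 endothelial, 5 of 7 leukocyte and 2 of 4 mesothelial ones. Within the low group Krt18, an epithelial keratin, was higher in EA by 0.39 (SE 0.09, limma adjusted p = 0.036). That call was lost after quantile normalization (0.074) or centring (0.071), with crossed replicate numbers (0.059), and without EA replicate 2, either array of EA with hormone, YF replicate 1 or either array of YF with hormone (0.071 to 0.11). Of the remaining markers, Tek was lower in EA by a log2 difference of -1.58, Cd68 higher by 3.15 and Msln higher by 5.87, and Wt1 had -5.29, Msln and Wt1 with 1 side in the low group. The part of any of these markers in the difference of the contractile genes was not tested.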

How the data were processed

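The authors deposited log2 expression values per probe set, 1 column per array. GCOS and RMA are named in the submitters' processing notes, with no version or setting. RNA was isolated by TRIzol and carried a biotin label, per the labels' protocols. No further normalization was applied, since array medians were 2.85 to 2.95. The number of arrays limits the precision, and no detection calls were used.

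Of 45101 probe sets 64 controls were left out, 34945 of the rest carried 1 symbol, 932 several and 9160 none in the platform annotation. RefSeq gene identifiers matched 34741 of the former and changed 0 symbols. Group means of all 8 arrays were fitted in limma 3.58.1 under R 4.3.3 (lmFit, then eBayes), with 4 residual and 1.26 prior degrees of freedom. The 6 comparisons were two-sided, adjusted by Benjamini-Hochberg over 45037 probe sets, and share arrays with each other. Differences are EA minus YF, or hormone minus none, and SE is their moderated standard error. A gene was represented by its probe set with the highest mean. The code was tested on simulated data.

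The members and the 12 further gene lists (132 entries, 130 measured) were chosen with earlier results of these data known. A further list is not reported here. The text names every member and, from each other list, up to 4 genes with the largest passing difference averaged over treatments. It also names the SRF and myocardin family genes, list genes passing for hormone against none and the first markers of each cell type. Other list genes named for lying in the low group or for not passing were chosen after their values were seen.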

Additional observations from a re-analysis of the deposited data

How the results depend on the processing

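The alternatives were quantile normalization, centring each array on its median, keeping only probe sets above the median level, limma's intensity trend and robust options, a replicate block, fitting only the 4 arrays compared, averaging all probe sets of a gene and leaving out each array. A block with the EA numbers crossed was added after seeing the data. Actg2, Cnn1 and Myh11 passed lower in EA in every EA and YF comparison under each alternative, and Acta2 did so averaged over treatments. Of 296 values of passing genes 276 kept their side of the threshold, 20 lost it and 0 reversed. The contractile genes passing numbered 3 to 5 without hormone, 3 to 7 with hormone and 4 to 8 averaged, where the crossed block gave 5, 7 and 8 and the mean over a gene's probe sets 5 without hormone. The totals over all probe sets moved too. They reached at most 5899 without hormone, 5883 with hormone and 8577 averaged, against 4847, 4579 and 7451 in the chosen fit. The counts of contractile genes were thus not set against a fixed share. Same-numbered arrays of 2 groups correlated at -0.303 to 0.367 in their deviations from the group mean, so the numbers were not taken as pairs. With a replicate block 3, 3 and 6 contractile genes passed in these comparisons, 15 probe sets with hormone in EA cells, 21 in YF cells and 0 in the difference of responses. With crossed numbers 131 passed in YF cells and 2 in the difference. Quantile normalization gave 37 in EA cells (61 in the chosen fit) and 53 in YF cells (81). The difference, with 9, gave 1 above the median level and 20 with the trend. Its higher and lower calls were 4 and 5, and 5 and 3 after quantile normalization, and those in EA cells were 42 and 19, and 23 and 22 after centring. Fits of only 4 arrays gave 4 in EA cells, 1 in YF cells and 2381 for EA against YF with hormone. Leaving out an array gave 2488 to 5170 probe sets for EA against YF without hormone, 2372 to 4939 with hormone, 9 to 80 for hormone in EA cells, 8 to 675 in YF cells (675 without YF with hormone replicate 2) and 0 to 201 in the difference.

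The sign of values that did not pass turned in places. Des without hormone ranged from -0.024 to 0.011 with an array left out and was 0.012 after quantile normalization and 0.014 after centring. In EA cells the hormone values ranged from -0.144 to 0.039 for Acta2, -0.253 to 0.054 for its dimmer probe set, -0.373 to 0.396 for Actg2, -0.249 to 0.379 for Cnn1, -0.258 to 0.164 for Tagln, -0.560 to 0.292 for Myl9, -0.501 to 0.014 for Lmod1, -0.011 to 0.110 for Des and -0.027 to 0.085 for Tpm2, and centring gave -0.026 for Actg2 and -0.0088 for Tpm2. In YF cells they ranged from -0.357 to 0.037 for the dimmer Acta2 probe set, -0.176 to 0.127 for Cnn1, -0.191 to 0.749 for Myl9, -0.014 to 0.0075 for Tpm1 (0.012 after centring), -0.055 to 0.115 for Tpm2 and -0.053 to 0.432 for its dimmest probe set. The difference of responses ranged from -0.137 to 0.257 for the dimmer Acta2 probe set, -0.060 to 0.708 for Actg2, -0.224 to 0.404 for Cnn1, -0.884 to 0.057 for Myl9, -0.156 to 0.359 for Lmod1, -0.086 to 0.084 for Tpm2 (0.015 after quantile normalization) and -0.043 to 0.443 for its dimmest probe set. The cause was not tested. With 2 arrays a group, a left-out array leaves 1 whose spread is taken from the other groups, and signal over background was not used here.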
